A study of Arabidopsis thaliana with 4 samples.

Results

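The microRNA (miRNA) miR163 of Arabidopsis thaliana was followed across the 4 single-colour arrays of a study of seedlings that carry ABR17 and were grown with or without salt. The miRNA was found by its probe name, ath-miR163, which is 1 of the 213 miRNA probes of the array design and is printed at 12 spots on each array, 48 spots in all. It was selected on its mean spot intensities on these same arrays, which were already known to differ, so every difference below is a description and carries no test.

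Seedlings of 4 groups were compared, each by 1 array: ABR17_salt (plants transgenic for the cDNA of ABR17, on medium with 100 mM NaCl), ABR17_control (the same transgenic on 0 mM NaCl), WT_salt (wild type on 100 mM NaCl) and WT_control (wild type on 0 mM NaCl). ABR17 is an abscisic acid-responsive protein of pea that belongs to the pathogenesis-related PR10 family. The labels give 2 weeks of growth on MS medium and, in the same protocol, 7 days under a light and dark cycle. The sources used here do not give the promoter of the transgene or the number of transgenic lines. The design text speaks of 3 biological replicates, whereas each group has 1 array here, so no difference has a replicate check and no p-value can be given. RNA came from whole seedlings, in which fewer cells that make a miRNA and less of it per cell cannot be told apart. The arrays hold probes for miRNAs, 5S rRNA and calibration, so neither the ABR17 transcript nor any mRNA target of miR163 was measured.

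Plant miRNAs are cut from hairpin precursors by DICER-LIKE1 and guide ARGONAUTE proteins to mRNAs of nearly full complementarity, which are then mostly cleaved. The precursor of miR163 is known from Arabidopsis and its close relatives and is thought to have arisen from an inverted copy of a methyltransferase gene. Its known targets encode S-adenosylmethionine-dependent carboxyl methyltransferases, among them PXMT1 and FAMT, enzymes of small secondary metabolites with roles in defence and in seedling growth. In the RefSeq annotation of assembly TAIR10.1 the gene MIR163 (AT1G66725) lies on chromosome 1 directly after AT1G66720, the pseudogene AT1G66710, PXMT1 (AT1G66700) and AT1G66690, and directly before the DNA ligase gene LIG6 (AT1G66730). The array files name no genome build, so no coordinates are given.

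The target sequence of the probe is printed first because its length and its distance from the other targets bear on which of them could share its signal. RNAs without a probe on the array were not examined. Sequences run 5′ to 3′ as deposited in the array files, and capitals mark the seed, bases 2 to 8.
miR163: uUGAAGAGgacuuggaacuucgau
miR5016: uUCUUGUGgauuccuuggaaa
miR404: aUUAACGCuggcgguugcggcagc
miR5018: uUAAAGCUccaccaugaguccaau
The target of miR163 is 24 bases long, whereas 167 of the 213 targets have 21 bases. Only 6 targets on the array reach 24 bases, the greatest length present, and miR163 is the 1 among them that was detected on all 4 arrays. Of the other 24-base targets, miR404 was detected on ABR17_salt and WT_salt, miR5018 on WT_salt, and miR405a, miR829.1 and miR836 on no array. No other target shares the seed of miR163. The nearest target in an ungapped alignment of at least 18 bases is that of miR5016, with 6 mismatches over 18 bases, and miR5016 was detected on no array. The GC content of the miR163 target is 41.7%, close to the median of 42.9% over the 213 targets, and its first base is U, as in 149 of them.

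WT_control stood apart from the other arrays in its blank spots and in the calibration probe PUC2MM. Blank spots averaged an intensity of 231 there, against 84.8 to 111 on the other 3 arrays. PUC2MM, 1 of 43 calibration probes, read 11421 there, against 1176 to 4019. The 5S rRNA mean of WT_control, 41895, lay within the range of the other arrays, 36776 to 48763. Across the 30 miRNAs detected on all 4 arrays, miR163 among them, r was taken between normalised log2 levels. It was 0.886 to 0.905 between WT_control and another array, and 0.929 to 0.965 between 2 other arrays. A miRNA was called detected where at least 50% of its spots exceeded the blank mean plus 3 blank SD. This held for 59 miRNAs on ABR17_salt, 30 on ABR17_control, 54 on WT_salt and 39 on WT_control. The 30 miRNAs detected on all 4 arrays are thus those detected on ABR17_control, and miRNAs dim there are left out. On that array the blank mean of 111 lay above the median miRNA spot of 102.7. Whether the brightness of WT_control has a part in the differences that use it was not tested.

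All 12 spots of miR163 lay above that threshold on every array. On ABR17_salt the spots ran from 185.7 to 220.1 with a median of 200.4, and their mean was 201 ± 11.1 (SD of 12 repeat spots, as in all SDs here). On ABR17_control they ran from 277 to 381 with a median of 353 and a mean of 341 ± 32.9. The tightest set of spots was thus that of ABR17_salt, with a coefficient of variation of 5.52%. On WT_salt the spots ran from 116 to 208 with a median of 179 and a mean of 181 ± 24.1. On WT_control they ran from 369 to 484 with a median of 431 and a mean of 424 ± 37.2. The raw intensities of the plants without salt therefore lay above those of the plants with salt in both genotypes, with no overlap of spots, but so did the means of the blank spots.

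**Figure D1:**
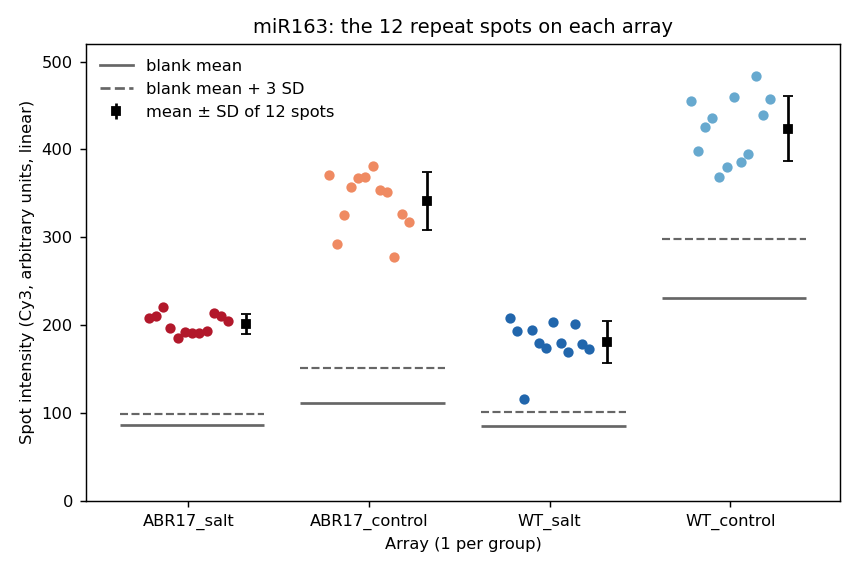
Intensity of the 12 repeat spots of miR163 (points, in the order of their position on the array) on each of the 4 arrays, on a linear axis, with their mean ± SD, the mean of the blank spots and the detection threshold of that array. Every spot lies above its threshold, and the spot of 116 on WT_salt is the only one far from its fellows.

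The ratio to background went the other way for the untreated wild type. Spot means were 2.33 times the blank mean on ABR17_salt, 3.07 times on ABR17_control, 2.13 times on WT_salt and 1.83 times on WT_control. After subtraction of the blank mean, miR163 read 115 on ABR17_salt, 230 on ABR17_control, 95.8 on WT_salt and 193 on WT_control. WT_control thus had the smallest ratio to its blanks beside the highest raw signal, while its blank-subtracted intensity was the second highest. The blank spots nearest to the miR163 spots gave almost the same: with the 20 nearest blanks subtracted from each spot, the means were 114, 231, 96.6 and 198 in the same order of arrays.

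The spots of miR163 were also compared by their position on the array. On WT_salt the spot in row 22 and column 22 read 116, against 169 for the next lowest, and its within-spot coefficient of variation of 6.71% lay inside the range of 4.24% to 8.00% on that array. The 4 spots in column 2 averaged 202 on WT_salt and 459 on WT_control, above those of column 12 (183 and 398) on the same arrays. Column 22 holds the low spot of WT_salt and averaged 415 on WT_control. On ABR17_salt columns 2, 12 and 22 averaged 202.4, 199.0 and 202.5, and on ABR17_control 347, 335 and 341, which are within their spread of spots. Rows did differ on these arrays. On ABR17_salt rows 22 and 112 averaged 213 and 209, above the 192 of rows 52 and 82, with no overlap of spots. On ABR17_control rows 22 and 112 averaged 330 and 307, below the 365 and 362 of rows 52 and 82.

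Rank needs no scaling between arrays. Among the 213 miRNA probes, miR163 was the 25th brightest on ABR17_salt, the 20th on ABR17_control, the 23rd on WT_salt and the 31st on WT_control. Single spots set against the means of the other miRNAs would have ranked 23 to 26 on ABR17_salt, 17 to 20 on ABR17_control, 19 to 36 on WT_salt and 30 to 32 on WT_control. The spots of ABR17_control and WT_control did not overlap in rank, nor did those of ABR17_control and ABR17_salt, whereas the wide range of WT_salt met that of every other array. In the authors' deposited values the ranks were 24 for ABR17_salt, 20 for ABR17_control, 21 for WT_salt and 30 for WT_control. A rank also depends on what the other miRNAs do, and brightness on the probe, so a rank is no measure of amount between miRNAs.

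**Figure D2:**
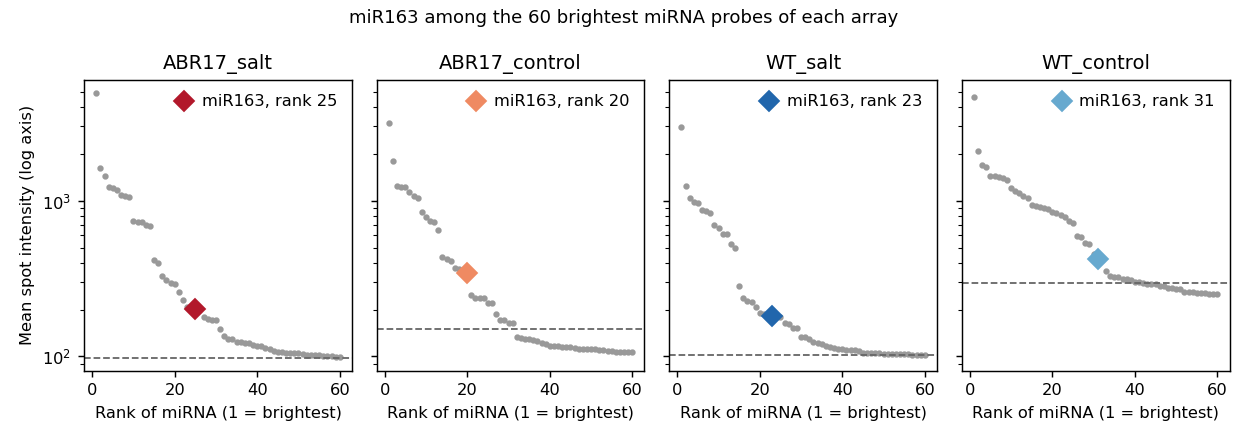
Mean spot intensity (log axis) of the 60 brightest miRNA probes of each array against their rank, with miR163 as a diamond and the detection threshold dashed. miR163 sits at rank 25 on ABR17_salt, 20 on ABR17_control, 23 on WT_salt and 31 on WT_control.

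The probes around miR163 show how fine these steps are. On ABR17_control it was followed by miR167c (mean spot intensity 246) and miR408 (237), whose spots did not overlap with its own, while miR164a (353) and miR164c (364) just above it did overlap. On WT_control its neighbours were miR834 (457) and miR164c (525) above and miR171a (413) and miR391 (356) below, and all 4 overlapped with it. On ABR17_salt the neighbours were miR164c and miR171a above and miR164a and miR395a below, and on WT_salt miR319c and miR164c above and miR395a and miR164a below, again with overlap in every case. Over all probes, the spots of 11 other miRNAs overlapped with those of miR163 on ABR17_salt, 10 on ABR17_control, 41 on WT_salt and 19 on WT_control.

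To set arrays against each other, spot intensities were corrected for background with normexp, averaged on the log2 scale and quantile normalised over the 213 miRNAs. The level of miR163 on that scale was 7.84 ± 0.03 on ABR17_salt, 8.26 ± 0.05 on ABR17_control, 7.93 ± 0.08 on WT_salt and 7.08 ± 0.06 on WT_control (SE of 12 repeat spots). The order from the highest was ABR17_control, WT_salt, ABR17_salt and WT_control, in which the 2 arrays in the middle did not differ beyond their spread of spots. ABR17_control was the highest of the 4 under each of 14 other ways of processing that covered all 4 arrays, whereas the place of WT_control moved between the second and the last.

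In plants without salt, the question was whether the transgene goes with another level of miR163. ABR17_control had a normalised level of 8.26, against 7.08 on WT_control. The log2 difference was 1.18 ± 0.07 (SE from the repeat spots), which is 2.27-fold higher in the transgenic. The normalised spots did not overlap: they ran from 7.93 to 8.45 on ABR17_control and from 6.78 to 7.38 on WT_control. This was the highest of the differences of the 30 miRNAs detected on all 4 arrays, followed by miR164c, a regulator of NAC transcription factors, at 1.05. By the rule of at least 2-fold with no overlap of spots, 5.13% of the 39 miRNAs detected on at least 1 of these arrays were higher and 5.13% lower, and miR163 and miR164c are the 2 that were higher, miR156h and miR5021 the 2 that were lower. The rank of miR163 was 20 on ABR17_control and 31 on WT_control.

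The size of that difference depended on the scaling. Its sign held in all 14 alternatives but turned on raw intensities, with neither background correction nor scaling. Without normalisation it was 0.12, while the median of the 30 miRNAs was −0.54, so that miR163 lay 0.67 above the median, and it was again the highest of the 30. After subtraction of the blank mean alone, the intensity of miR163 on ABR17_control was 1.19 times that on WT_control, with 10 of 12 spot positions higher on ABR17_control. With no subtraction, none of the 12 positions was higher on ABR17_control (340.8 against 423.6). In the authors' deposited values miR163 read 307.6 on ABR17_control and 85.2 on WT_control, 3.61-fold higher in the transgenic and likewise the highest of the 30. Those values are not a fixed multiple of the blank-subtracted intensities, since their ratio for miR163 was 1.34 on ABR17_control and 0.442 on WT_control, where the medians over the 30 miRNAs were 1.16 and 0.503. How the deposited values were scaled between arrays stays unknown.

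**Figure D3:**
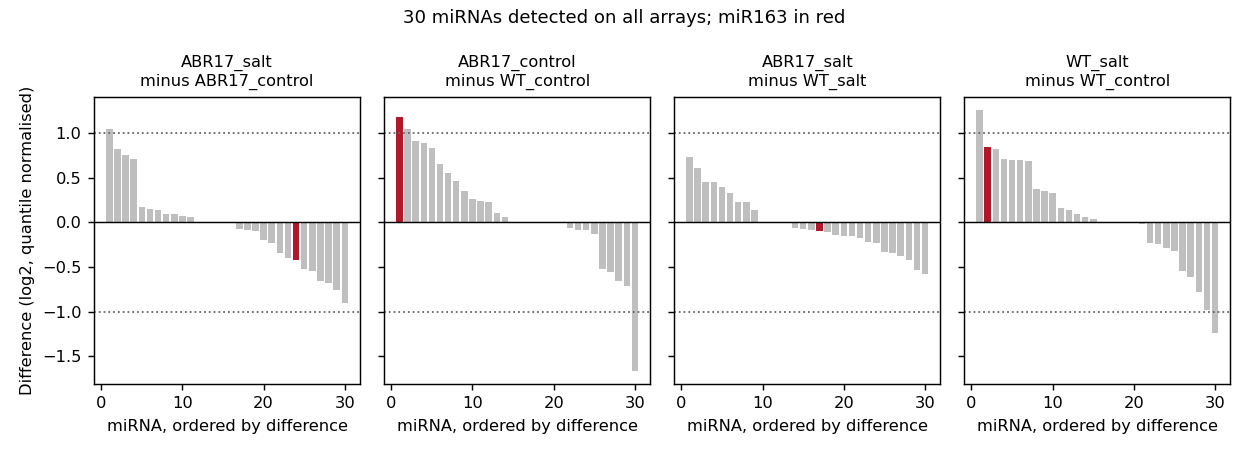
Normalised log2 differences of the 30 miRNAs detected on all 4 arrays, ordered within each of the 4 comparisons, with miR163 in red and 2-fold marked by dotted lines. miR163 is the first of 30 for ABR17_control minus WT_control, the second for WT_salt minus WT_control, the 24th for ABR17_salt minus ABR17_control and the 17th for ABR17_salt minus WT_salt.

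Salt in the transgenic went with a lower level of miR163. The normalised level was 7.84 on ABR17_salt and 8.26 on ABR17_control, a difference of −0.43 ± 0.05, or 1.34-fold lower with salt. The spots ran from 7.71 to 7.98 on ABR17_salt and from 7.93 to 8.45 on ABR17_control and overlapped at that edge, and 1 of 12 spot positions was higher with salt. No miRNA of the 59 detected on at least 1 of these arrays (0%) was lower by the rule of 2-fold, while 1 (1.69%) was higher, miR824. The difference of miR163 was the 24th of 30 from the top here and the 28th without normalisation, where it was −0.77 against a median of −0.01. After blank subtraction alone the intensity with salt was 0.50 times that without, lower at all 12 positions. The authors' deposited values gave 131.2 on ABR17_salt and 307.6 on ABR17_control, which is 2.34-fold lower with salt. This comparison does not use WT_control, and with that array left out of the normalisation the difference was −0.48.

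Salt in the wild type gave no settled direction. WT_salt had a normalised level of 7.93, against 7.08 on WT_control. The log2 difference was 0.85 ± 0.09, which is 1.80-fold higher with salt. It was the second of 30 after miR171a, and 3.45% of the 58 miRNAs detected on at least 1 of these arrays were higher by the 2-fold rule (miR171a and miR395a) and 5.17% lower (miR156h, miR158a and miR5021), miR163 not among them. Spots ran from 7.19 to 8.18 on WT_salt and from 6.78 to 7.38 on WT_control and overlapped through the low spot of WT_salt. Without that position they ran from 7.84 to 8.18 and from 6.78 to 7.38, and the difference was 0.92. Without normalisation the difference was −0.83 against a median of −0.89 over the 30 miRNAs, so that miR163 lay 0.06 above the median, the 14th of 30. After blank subtraction alone the intensity with salt was 0.50 times that without, lower at all 12 positions, as in the transgenic. Scaling on the 75th percentile (−0.31), the calibration probes (−0.27) or 5S rRNA (−1.05) also put miR163 lower on WT_salt. The authors' deposited values were 172.5 on WT_salt and 85.2 on WT_control, 2.03-fold higher with salt.

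Under salt, the transgenic and the wild type lay close together. The level was 7.84 on ABR17_salt and 7.93 on WT_salt, a difference of −0.09 ± 0.08, with overlapping spots. The 17th place among 30 differences put miR163 near the middle. None of the 62 miRNAs detected on at least 1 of these arrays (0%) passed the 2-fold rule in either direction. The sign turned without normalisation (0.19), with the 75th percentile (0.22) and with 5S rRNA (0.26), and the deposited values were 131.2 on ABR17_salt and 172.5 on WT_salt, a difference of −0.39 on the log2 scale. Of all alternatives run, the difference ran from −0.54 to 0.26, and none reached 2-fold. With 1 array a group this does not show that the groups have the same level.

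The salt responses of the genotypes were then set against each other. The response of miR163 was −0.43 in the transgenic and 0.85 in the wild type, so that the difference of responses was −1.27 ± 0.11, the lowest of the 30 miRNAs. It was −2.25 in the authors' deposited values, 0.064 without normalisation and −0.20 with 5S rRNA scaling. The response of the transgenic was below 0 in each of 15 alternatives. In the wild type it was above 0 in 10 of 14 alternatives and below 0 in 4. Most of the 10 kept the quantile normalisation and none of the 4 did, so the alternatives are not independent of each other. Blank mean subtraction alone, which is not among these alternatives, put the intensity with salt at 0.50 times that without in both genotypes.

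**Figure D4:**
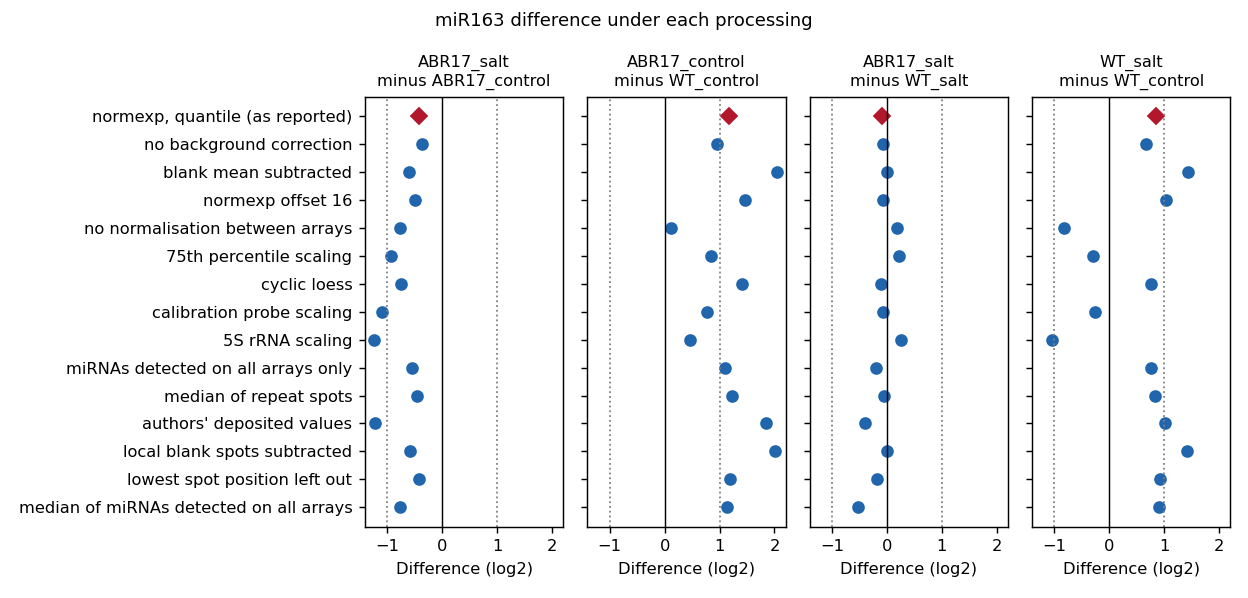
The log2 difference of miR163 in each of the 4 comparisons (panels) as reported (red diamond) and under 14 other ways of processing (blue), with 2-fold marked by dotted lines. All points are above 0 for ABR17_control minus WT_control and below 0 for ABR17_salt minus ABR17_control, while those of WT_salt minus WT_control fall on both sides.

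The miRNAs with the most similar course over the 4 arrays were found by the distance between levels centred on their own mean, among the 29 others detected on all 4 arrays. The nearest were miR164c (distance 0.16 on the log2 scale), miR157a (0.21), miR164a (0.41), miR390a (0.53) and miR171a (0.55). The repeat spots of miR157a scattered widely on WT_control. Their combined SD was 1.11 for ABR17_control minus WT_control, against 0.22 for ABR17_salt minus ABR17_control, so its place here is loose. miR164 targets NAC factors of organ boundaries, miR157 targets SPL factors of phase change, miR390 starts the production of trans-acting siRNAs, and miR171 targets the HAIRY MERISTEM genes, which encode GRAS proteins. The sequences of the miR164 pair are shown to set them beside miR163, with which they share no seed.
miR164c: uGGAGAAGcagggcacgugcg
miR164a: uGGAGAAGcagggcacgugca
The targets of the pair differ by A21G, counted from the 5′ end with the base of miR164a first, so their probes may take up each other's RNA and are not independent.

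On every array miR164c also stood within 2 ranks of miR163 (24 and 25 on ABR17_salt, 18 and 20 on ABR17_control, 21 and 23 on WT_salt, 29 and 31 on WT_control, miR164c first). Quantile normalisation gives neighbours in rank neighbouring levels by its construction. With scaling on the 75th percentile, 3 of these 5 miRNAs stayed among the nearest 5, and both miR164 probes came first. In the authors' deposited values 3 stayed as well, and miR171b came first. Over the 3 arrays other than WT_control, miR164c and miR164a stayed and the other 3 did not. These likenesses rest on 4 arrays and come with no test.

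**Figure D5:**
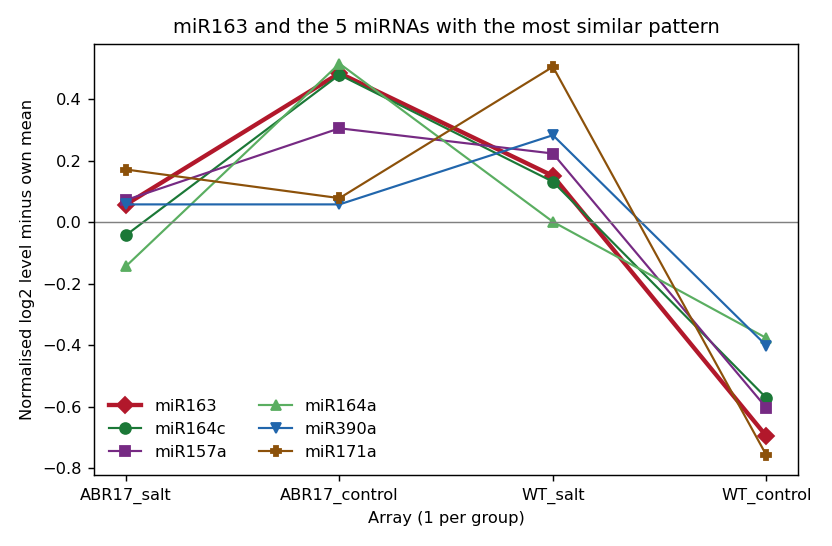
Normalised log2 levels of miR163 and of the 5 miRNAs with the most similar course, each minus its own mean over the 4 arrays (1 array per group). All 6 are lowest on WT_control, and miR163, miR164c, miR157a and miR164a are highest on ABR17_control.

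Families known mainly from Arabidopsis and its relatives, taken by family number, made up 95 of the 213 probes, and 5 of them were detected on all 4 arrays. These were miR163, miR161.1, which targets pentatricopeptide repeat genes, miR173, which triggers trans-acting siRNAs, miR824, a regulator of AGAMOUS-LIKE16, and miR854a, whose number falls in the range although it is not known to be limited to this lineage. For ABR17_control minus WT_control, miR163 was the 1 member called higher and none was called lower among 8 detected on at least 1 array, where 5.13% of all 39 were called higher and 5.13% lower. The median of the 5 members on both arrays was 0.00, as was that of all 30 miRNAs detected on both. For the 5 members this is the value of miR854a, which its rank of 1 on both arrays fixes at 0.00. The others gave 0.26 for miR173, −0.06 for miR161.1, −0.56 for miR824 and a tie at the top rank for miR854a.

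The lineage did not move together with salt. For ABR17_salt minus ABR17_control, miR824 (1.05) and miR173 (0.83) were higher and miR163 (−0.43) was lower, with miR161.1 at 0.15, and the median of 5 was 0.15 against 0.00 over the 30 miRNAs detected on both arrays. The 1 member called higher was miR824, and none was called lower among 11, where 1.69% of all 59 were called higher and 0% lower. For WT_salt minus WT_control, miR173 differed by 0.69, miR161.1 by 0.09 and miR824 by −0.24 beside the 0.85 of miR163, and none was called higher and 1 lower (miR158a) among 11, where 3.45% of all 58 were called higher and 5.17% lower. Under salt, ABR17_salt minus WT_salt was 0.73 for miR824, 0.40 for miR173, 0.00 for miR161.1 and −0.09 for miR163, with none called among 12, as among all 62. In families numbered up to miR408 outside this lineage, 24 of 57 probes were detected on all 4 arrays, and the median for ABR17_control minus WT_control was 0.03.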

How the data were processed

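Small RNA of whole seedlings was labelled with Cy3 by a service provider, per the labels' protocols. Each of 4 array files lists 3968 spots: 2556 for 213 miRNAs at 12 spots each, 1120 blank, 268 for calibration and 24 for 5S rRNA. The mean density deposited for each spot is a linear intensity without background subtraction, per the file headers. The authors also deposited 1 processed intensity per miRNA and array, and the sources used here do not say how it was scaled. Column medians of that table were 9.38 (ABR17_salt), 11.2 (ABR17_control), 10.3 (WT_salt) and 12.6 (WT_control), so it is linear and uncentred.

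Background was corrected by normexp with an offset of 50 over every spot of an array (limma 3.58.1, R 4.3.3). The log2 values of repeat spots were averaged, and the 213 miRNAs were quantile normalised. The offset shrinks differences of dim miRNAs. Equal ranks get equal values, so a difference of 0.00 is a tie of rank. For a miRNA detected on 1 array of a pair, the dim array was raised to the lowest level detected on it where its own lay below. SE and SD come from repeat spots of 1 hybridisation and do not measure the spread between seedlings. The number of arrays limits the precision. The steps were run on simulated arrays with 1 uniform gain per array, which cannot show whether the differences of miR163 are right.

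miR163, the lists and the rules were chosen with earlier results of these data known. The rule for names took miR163, the 5 miRNAs nearest in course, its neighbours in rank, members of its lineage list detected on all arrays and the nearest target sequence. The other 24-base targets and the miRNAs that passed the 2-fold rule were named after their values were seen. The same holds for those named only because they share the signs of the salt responses. Alternatives changed the background, the scaling, the summary of spots and the detection threshold.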

Additional observations from a re-analysis of the deposited data

Results flagged for a closer look

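The salt response of miR163 pointed down in the transgenic (−0.43 on the log2 scale, ABR17_salt minus ABR17_control) and up in the wild type (0.85, WT_salt minus WT_control), which is why it was flagged. The same signs were seen in miR164c, miR157a and miR164a, which had been picked for their likeness to miR163 in course. Of the nearest 5, miR390a (0.00) and miR171a (0.09) were not lower with salt in the transgenic. Outside the nearest 5, the signs were shared by miR171b, miR167d, miR159b and miR159a. For miR163 the difference of responses was −1.27. It was not tested, since each group has 1 array, and the wild type response was below 0 under 4 of 14 alternatives. PUC2MM, 1 of 43 calibration probes, read 4019 on ABR17_salt, 1176 on ABR17_control, 1844 on WT_salt and 11421 on WT_control. Its part in the difference was not tested.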

How the results depend on the processing

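No paired analysis was possible because each group has 1 array. Values here are log2 differences of miR163 unless said otherwise, those that moved by more than the SD of repeat spots are given, and the cause of a move was not tested. Local blanks, the position left out, median scaling, leaving out WT_control and the likeness over 3 arrays were chosen after seeing the data. Values given here with the blank mean or local blanks subtracted were quantile normalised after the subtraction. Without that normalisation, blank mean subtraction put the intensity with salt at 0.50 times that without in both genotypes. On the same scale ABR17_control lay at 1.19 times WT_control. ABR17_control minus WT_control (1.18) was 2.04 with the blank mean subtracted, 2.01 with local blanks, 1.46 with offset 16, 1.85 in the authors' deposited values, 0.84 with the 75th percentile, 0.77 with calibration probes, 0.46 with 5S rRNA and 0.12 without normalisation. It stayed above 0 in all 14 alternatives and reached 2-fold in 9. ABR17_salt minus ABR17_control (−0.43) was −0.76 with cyclic loess, −0.77 without normalisation, −0.78 with the median of miRNAs detected on all arrays, −0.93 with the 75th percentile, −1.10 with calibration probes, −1.23 in the deposited values and −1.24 with 5S rRNA, and below 0 in all 15. WT_salt minus WT_control (0.85) was 1.44 with the blank mean subtracted and 1.41 with local blanks, but −0.27 with calibration probes, −0.31 with the 75th percentile, −0.83 without normalisation and −1.05 with 5S rRNA. ABR17_salt minus WT_salt (−0.09) was −0.54 with median scaling, −0.39 in the deposited values, 0.19 without normalisation, 0.22 with the 75th percentile and 0.26 with 5S rRNA. The difference of salt responses (−1.27) was −2.25 in the deposited values, −2.04 with the blank mean subtracted, −2.01 with local blanks, −1.68 with median scaling, −0.84 with calibration probes, −0.62 with the 75th percentile and −0.20 with 5S rRNA, and it reversed to 0.064 without normalisation. The rank on WT_control was 31, and 30 in the deposited values. Detection held on all arrays at 6 blank SD, with 11 of 12 spots on WT_salt. Of the 5 miRNAs nearest in course, 3 stayed with the 75th percentile, 3 in the deposited values and 2 over the 3 arrays other than WT_control.

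Counts of miRNAs called at 2-fold for WT_salt minus WT_control were 2 higher and 3 lower, and became 6 and 6 at 1.5-fold, and 5 and 12 in the deposited values with no rule on spots. For ABR17_control minus WT_control 2 and 2 became 5 higher at 1.5-fold, and 5 and 10 in the deposited values. For ABR17_salt minus ABR17_control 1 and 0 became 3 and 4, and 12 and 4. For ABR17_salt minus WT_salt 0 and 0 became 4 higher at 1.5-fold and 7 higher in the deposited values. On WT_control miR163 lay at 1.42 times the detection threshold, against 1.78 to 2.26 times on the other arrays, which limits how well its level there can be told from background.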
